A study of Mus musculus with 8 samples.

Results

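Synaptic adhesion and organizer genes encode the proteins through which an axon and its target cell recognise each other and build a synapse. They were followed here in mice short of the sodium channel NaV1.2. The members were the protein-coding genes of 15 families, chosen by symbol: neurexins, neuroligins, LRRTM, SLITRK, SynCAM, calsyntenins, FLRT, SALM, LAR-type receptor phosphatases, teneurins, latrophilins, cerebellins, C1q-like proteins, contactins and the CNTNAP4 and CNTNAP5 group. A gene also needed at least 10 counts in 4 libraries. Of 58 matching symbols in a matrix of 54446 genes, 49 met this and are the members, and all 49 were among the 17395 genes tested.

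HOM samples came from mice with both copies of Scn2a, the gene of NaV1.2, carrying a gene trap (Scn2agt/gt). Such a trap is DNA placed within a gene to cut its transcript short, and the allele is inherited through the germ line rather than switched on in a chosen cell type. WT samples came from wild-type littermates, and both genotypes descend from crosses of heterozygotes (Scn2aWT/gt) on a strain that the labels spell C75BL6. There were 4 HOM and 4 WT samples of total RNA, with the source labelled neuron. The labels give no age for single animals, brain region or sex. Whether each numbered sample is a mouse of its own is not stated, so p-values here rest on the spread among samples, which may be technical. The series describes its aim as learning how a severe NaV1.2 shortage acts on principal neurons of cortex and striatum.

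Scn2a averaged 128 ± 15.1 CPM in HOM and 435 ± 51.6 CPM in WT (SD, n = 4 each; CPM are counts scaled to the TMM-adjusted library size), a log2 fold change of -1.77 (SE 0.10, edgeR quasi-likelihood test, adjusted p = 1.16e-05). Library totals lay between 27993412 and 37538988 counts. Mean log2 CPM of 10 astrocyte markers was 7.37 ± 0.12 in HOM and 7.56 ± 0.08 in WT, and of 8 measured neuron markers 8.98 ± 0.03 in HOM and 9.16 ± 0.07 in WT (SD, n = 4 each). Of the oligodendrocyte and mural cell lists, 10 of 10 genes each had negative fold changes, and 0 and 2 were lower at the threshold. Mean log2 CPM of the oligodendrocyte list was 6.94 ± 0.12 in HOM and 7.21 ± 0.23 in WT, and of the mural cell list 3.18 ± 0.07 in HOM and 3.49 ± 0.06 in WT (SD, n = 4 each). Microglia markers went the other way, at 4.96 ± 0.08 in HOM and 4.72 ± 0.14 in WT (SD, n = 4 each), with positive fold changes for 9 of 9 measured and C1qa higher at the threshold. The libraries therefore held RNA of several cell types despite the label, and fewer cells of a type and less RNA per cell cannot be told apart. Across all genes tested, 429 were higher and 511 lower in HOM at an adjusted p under 0.05. Markers of the choroid plexus, the epithelium that secretes cerebrospinal fluid, averaged 0.83 ± 0.86 log2 CPM in HOM and 2.96 ± 1.23 in WT (SD, n = 4 each), and 5 of the 14 were lower at the threshold. Their highest mean was 4.63 in WT replicate 4, which also had the highest mean of the thalamus markers, 4.14 log2 CPM against 2.99 to 3.47 in the HOM libraries and 3.07 to 3.19 in the other WT libraries. Counts of 4 Y-linked genes summed to 2 in HOM replicate 4 and to 4452 or more in each of the other 7 libraries. Of the members, 4 lie on chromosome X: Nlgn3, Slitrk2, Slitrk4 and Tenm1.

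Neurexins sit on the presynaptic side and bind several kinds of partner across the cleft, among them neuroligins, LRRTM proteins, some calsyntenins and secreted cerebellins. A parallel set of hubs, the LAR-type receptor phosphatases, binds SLITRK and some SALM proteins, and the latrophilins bind teneurins and FLRT proteins. Which partners a neuron makes helps to set where, and of which kind, its synapses form. Many of these genes are among the longest of the mouse genome, because their coding exons are spread over very large introns.

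The 9 matching symbols that are no members stood at 0 counts in every library, and each lies inside another annotated gene: Lrrtm1 in Ctnna2, Lrrtm2 in Ctnna1, Lrrtm3 in Ctnna3, Lrfn1 in Samd4b, Lrfn4 in Pcx, Flrt1 in Macrod1, Flrt3 in Macrod2, Cbln1 in Gm2694 and C1ql1 in Gm26668. All of these hosts lie on the opposite strand. In the whole matrix, 1261 of 1280 nested protein-coding genes stood at 0 (98.5%), against 2784 of 20638 that are not nested (13.5%). A value of 0 for these genes is therefore no measurement of their expression. The counted feature is not given, so the CPM of members may include reads from introns. Annotated exons make up 0.364% of the span of Cntn5, for example, and 100% of that of Slitrk1. The member nearest to the count minimum was Cbln3, whose libraries other than HOM replicate 1 held 11 to 28 counts, followed by Slitrk6 with 15 to 101 counts. No symbol lay between 0 and the minimum. Reads in stretches shared by genes may be missing from some members too: 82.8% of the span of Nlgn3, 61.8% of C1ql3 and 50.3% of Cadm3 is shared with another gene, as are 68.6% of the exonic bases of Adgrl1, 63.4% of Cadm2 and 36.1% of Lrrtm4, and their values are uncertain.

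Of the 49 members, 5 passed the test, 3 higher and 2 lower in HOM, which is 10.2% of them beside 5.4% of all genes tested. The higher ones were 6.12% of the members beside 2.47% of all genes, and the lower ones 4.08% beside 2.94%. Lrfn2, Cntnap5c and Cntn5 rose, and Clstn1 and Cbln4 fell. They come from 5 different families, and in this fit no family had more than 1 member past the threshold. DESeq2 called 11 members, and 1900 of all genes (10.9%). Of the 11, 2 each were SLITRK genes (Slitrk1 and Slitrk2), cerebellins (Cbln2 and Cbln4) and contactins (Cntn1 and Cntn5). Another 2 were Cntnap5b and Cntnap5c of the CNTNAP4 and CNTNAP5 group. Cntnap5b and Cntnap5c also passed together without a filter on low counts and without HOM replicate 4 or WT replicate 1. Fold changes were positive for 26 members and negative for 23, with a median of 0.01 on the log2 scale beside 0.00 for all genes tested. The CPM of the genotypes did not overlap for 6 members (12.2%), beside 14.1% of all genes: Lrfn2, Cntn5 and Cntnap5c lay wholly above WT, and Clstn1, Slitrk1 and Cadm3 wholly below. Summed over the 49 members, CPM lay between 10057 and 10914 in HOM and between 9475 and 11288 in WT, so the ranges overlapped. With library totals alone as the scale, 4 members were higher (Cntnap5b in addition) and 0 lower, Clstn1 and Cbln4 being lost. The number past the threshold fell to 1 without HOM replicate 1, HOM replicate 3 or WT replicate 3, where 212, 180 and 181 of all genes passed. It fell to 2 without WT replicate 4, where 482 of all genes passed. With the choroid plexus marker level as a covariate it fell to 0, and 37 of all genes passed. That level largely followed genotype, at 0.18 to 2.07 log2 CPM in HOM and 1.72 to 4.63 in WT. The covariate thus takes up part of the genotype contrast, and this fit cannot tell them apart.

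**Figure D1:**
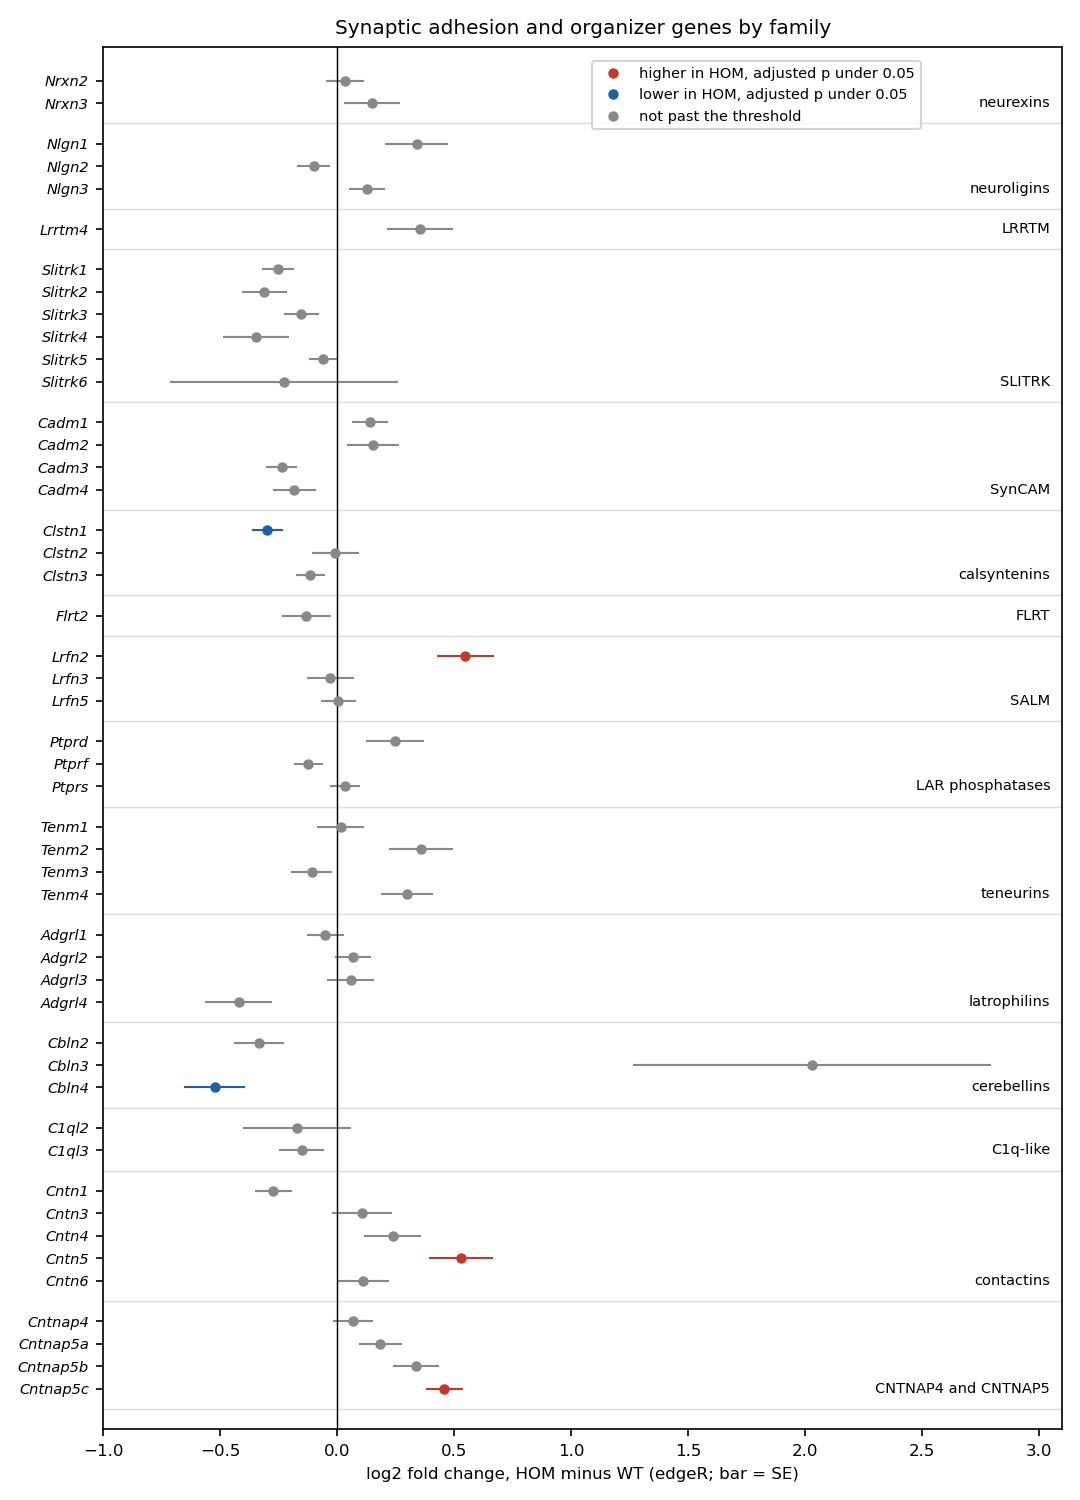
Log2 fold changes, HOM minus WT, of 48 members by family, with the standard error of the edgeR fit as bars. Red and blue points mark the 3 members higher and the 2 lower in HOM at an adjusted p under 0.05; all 6 SLITRK genes lie left of 0 and all 4 genes of the CNTNAP4 and CNTNAP5 group right of it.

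Promoter sequences of 3 of the called genes, and of Clstn2, are shown because they are the stretches from which these transcripts start. Clstn2 was taken from the relatives of Clstn1, none of which passed, because its window holds a motif that was searched for. Each is the 250 bases before the RefSeq transcription start on GRCm38.p6, read 5′ to 3′ along the gene's strand. Capitals mark the cyclic AMP response element TGACGTCA.

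Clstn1 promoter, chr4:149586218-149586467, plus strand: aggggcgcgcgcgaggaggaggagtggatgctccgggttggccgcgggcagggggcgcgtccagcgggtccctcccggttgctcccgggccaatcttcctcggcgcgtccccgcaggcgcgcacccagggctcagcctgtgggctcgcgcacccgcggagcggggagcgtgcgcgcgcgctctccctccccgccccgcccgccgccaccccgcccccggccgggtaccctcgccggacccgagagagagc
Clstn2 promoter, chr9:98033168-98033417, minus strand: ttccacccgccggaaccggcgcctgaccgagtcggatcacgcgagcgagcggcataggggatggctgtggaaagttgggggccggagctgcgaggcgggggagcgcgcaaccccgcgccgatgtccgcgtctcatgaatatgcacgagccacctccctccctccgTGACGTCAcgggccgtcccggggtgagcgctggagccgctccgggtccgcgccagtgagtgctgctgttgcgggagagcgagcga
Cbln4 promoter, chr2:172043467-172043716, minus strand: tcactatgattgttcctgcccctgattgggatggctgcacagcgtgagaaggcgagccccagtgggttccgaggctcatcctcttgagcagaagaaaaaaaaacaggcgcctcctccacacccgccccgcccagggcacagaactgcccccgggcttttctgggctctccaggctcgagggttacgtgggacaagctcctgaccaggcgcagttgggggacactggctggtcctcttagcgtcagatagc
Cntn5 promoter, chr9:10904776-10905025, minus strand: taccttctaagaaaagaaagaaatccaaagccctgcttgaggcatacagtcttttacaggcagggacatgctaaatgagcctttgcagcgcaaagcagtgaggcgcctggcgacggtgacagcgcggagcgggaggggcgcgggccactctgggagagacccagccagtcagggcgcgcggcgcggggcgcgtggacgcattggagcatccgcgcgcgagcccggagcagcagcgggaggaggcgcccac

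The RefSeq table held 52 such windows for 38 of the 49 members. They were searched on both strands for the cyclic AMP response element, for the EGR motif GCGTGGGCG or GCGGGGGCG, for the AP-1 motif TGANTCA and for TATAAA. The first was present in a window of 3 members, Clstn2, Slitrk2 and Tenm3. That is 5.77% of the member windows, beside 1.55% of all 32851 promoters in the table. The start of Clstn2 lies 14 bases from its GENCODE gene start, those of Slitrk2 and Tenm3 3841 and 169261 bases. No member window held the EGR motif, which 3.06% of all promoters held. AP-1 and TATAAA letters occurred in windows of 4 and 5 members, or 7.69% and 9.62% of the member windows, against 6.75% and 12.4% of all promoters. None of these motifs occurred in the windows shown for Clstn1, Cbln4 and Cntn5. GC content was 80.0% for Clstn1, 70.8% for Clstn2, 60.8% for Cbln4 and 64.8% for Cntn5.

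Among the presynaptic hubs, neither Nrxn2 nor Nrxn3 passed the test. Nrxn3 stood at 529, 475, 417 and 362 CPM in HOM replicates 1 to 4, and at 477, 374, 405 and 351 CPM in WT replicates 1 to 4. The genotypes overlapped, with WT replicate 1 above all HOM libraries but replicate 1. Nrxn3 had a log2 fold change of 0.15 (SE 0.12, edgeR adjusted p = 0.482). Nrxn2 averaged 593 ± 46.3 CPM in HOM and 580 ± 53.2 CPM in WT (SD, n = 4 each; log2 fold change 0.03, SE 0.08, edgeR adjusted p = 0.842). For both genes the difference was smaller than the spread between libraries of one genotype. Neurexin genes hold several promoters that give long and short isoforms, and 1 count per gene does not separate them.

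The LAR-type phosphatases, which couple adhesion to dephosphorylation of presynaptic proteins, also had no member past the threshold. Ptprd, the longest member, stood at 887, 844, 756 and 670 CPM in HOM replicates 1 to 4, and at 802, 635, 704 and 521 CPM in WT replicates 1 to 4. Its libraries overlapped, and WT replicate 4 was the lowest of the 8. Ptprd had a log2 fold change of 0.25 (SE 0.12, edgeR adjusted p = 0.254). Ptprf averaged 120.2 ± 2.79 CPM in HOM and 131 ± 8.88 CPM in WT, and Ptprs 699 ± 23.3 CPM in HOM and 683 ± 47.2 CPM in WT (SD, n = 4 each), with log2 fold changes of -0.12 and 0.03.

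On the postsynaptic side, no neuroligin passed the test. Nlgn1, which is best known from excitatory synapses, stood at 333, 259, 226 and 238 CPM in HOM replicates 1 to 4, and at 254, 192, 218 and 171 CPM in WT replicates 1 to 4. HOM replicate 1 was highest and WT replicates 2 and 4 lowest, and the other libraries overlapped. Nlgn2, which acts at inhibitory synapses, stood at 343, 315, 353 and 384 CPM in HOM replicates 1 to 4, and at 365, 403, 368 and 361 CPM in WT replicates 1 to 4. The log2 fold changes were 0.34 for Nlgn1 (SE 0.13, edgeR adjusted p = 0.155) and -0.10 for Nlgn2 (SE 0.07, edgeR adjusted p = 0.425). The ratio of Nlgn1 to Nlgn2 CPM was 0.972, 0.820, 0.640 and 0.620 in HOM replicates 1 to 4, against 0.696, 0.476, 0.590 and 0.473 in WT replicates 1 to 4. These ratios overlapped, since WT replicate 1 exceeded HOM replicates 3 and 4. Nlgn1 spans 906 kb and Nlgn2 14.7 kb. With a smooth trend with span removed from each library, their log2 fold changes were 0.14 and -0.11. The part of span in the ratio was not tested. Nlgn3, found at both kinds of synapse, averaged 74.1 ± 7.14 CPM in HOM and 67.8 ± 3.57 CPM in WT (SD, n = 4 each; log2 fold change 0.13, SE 0.08, edgeR adjusted p = 0.339).

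Lrrtm4, the measured member of a family of leucine-rich repeat proteins that bind neurexins or heparan sulphate, averaged 222 ± 33.3 CPM in HOM and 174 ± 35.4 CPM in WT (SD, n = 4 each). Its log2 fold change was 0.35 (SE 0.14, edgeR adjusted p = 0.158). Flrt2, a leucine-rich repeat ligand of latrophilins, averaged 84.4 ± 8.62 CPM in HOM and 92.5 ± 13.4 CPM in WT (SD, n = 4 each), with a log2 fold change of -0.13 and an edgeR adjusted p of 0.479. Both families are represented by 1 measured gene, so nothing can be said of the families.

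SLITRK proteins are postsynaptic ligands of the LAR-type phosphatases. All 6 of their genes had negative fold changes, with a median of -0.24 on the log2 scale. The test passed 0 of 6, against 2 of 6 with DESeq2, which called 10.9% of all genes. Slitrk1 came nearest, at 81.0, 91.3, 92.1 and 77.2 CPM in HOM replicates 1 to 4, and at 104, 98.0, 104 and 102 CPM in WT replicates 1 to 4. Every HOM library lay below every WT library, and the log2 fold change was -0.25 (SE 0.07, edgeR adjusted p = 0.0543). On log2 CPM an exact permutation test (two-sided) gave p = 0.0286, the smallest of 70 relabellings. Separate libraries fix this p, so it adds nothing to the lack of overlap, which 14.1% of all genes tested showed. Slitrk2 averaged 25.5 ± 2.12 CPM in HOM and 31.7 ± 3.55 CPM in WT (SD, n = 4 each; log2 fold change -0.31, SE 0.10, edgeR adjusted p = 0.0758). Slitrk4 had a log2 fold change of -0.35 (SE 0.14) with overlapping libraries, and HOM replicate 4, the one with 2 Y-linked counts, was its lowest at 33.8 CPM. Slitrk6 was near the detection limit, at 0.830 to 1.52 CPM in HOM and 0.406 to 3.20 CPM in WT. SLITRK genes are short, at 5.36 to 12.1 kb, and 2 of the 8 measured neuron markers, Snap25 and Nefm, were lower too, with a median of -0.17 over the 8. The part of the neuron list in these values was not tested.

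Lrfn2, a SALM protein that joins the postsynaptic density and associates with NMDA receptors, was the member with the largest rise among those past the threshold. It stood at 93.7, 59.6, 68.5 and 73.8 CPM in HOM replicates 1 to 4, and at 49.8, 56.3, 51.3 and 44.9 CPM in WT replicates 1 to 4. All HOM libraries exceeded all WT libraries, with HOM replicate 2 only slightly above WT replicate 2. HOM held 146% of the WT mean, and the log2 fold change was 0.55 (SE 0.12, edgeR adjusted p = 0.0269). The gene (ENSMUSG00000040490) spans chr17:48932379-49097588 of GRCm38, plus strand. Its call was kept without HOM replicate 2, HOM replicate 4 or WT replicate 2 and lost without any of the other 5 libraries, with an edgeR adjusted p between 0.0108 and 0.0774 over the 8 omissions. Its relatives did not pass the test, and the difference between them and Lrfn2 was not tested: Lrfn3 averaged 30.6 ± 4.19 CPM in HOM and 31.3 ± 2.70 CPM in WT, and Lrfn5 117 ± 5.89 CPM in HOM and 117 ± 10.9 CPM in WT (SD, n = 4 each).

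Among the calsyntenins, cadherin-type membrane proteins of the synapse, Clstn1 fell. Clstn1 also links cargo to kinesin in axons. Its CPM per kilobase of annotated exon was the highest of the members, at 350 in WT ahead of Cadm4 at 126 and Clstn3 at 91.1. As the counted feature is not given, this ratio need not be transcript abundance. Clstn1 stood at 1220.4, 1321, 1352 and 1412 CPM in HOM replicates 1 to 4, and at 1652, 1708, 1669 and 1501 CPM in WT replicates 1 to 4. The genotypes did not overlap, and HOM held 81.3% of the WT mean. The log2 fold change was -0.30 (SE 0.07, edgeR adjusted p = 0.0277). Clstn1 (ENSMUSG00000039953) spans chr4:149586468-149648899 of GRCm38, plus strand, and shares none of its span with another gene. The call was kept without HOM replicate 2, HOM replicate 4, WT replicate 2 or WT replicate 4 and lost without any of the other 4 libraries (edgeR adjusted p between 0.0308 and 0.102 over the 8 omissions). Clstn2 and Clstn3 had log2 fold changes of -0.01 (SE 0.10) and -0.12 (SE 0.06), and neither passed the test. Clstn2 averaged 223 ± 23.04 CPM in HOM and 224 ± 28.6 CPM in WT (SD, n = 4 each).

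SynCAM proteins are immunoglobulin adhesion molecules that bind one another across the cleft, and their 4 genes split by sign. Cadm3 stood at 441, 399.9, 414 and 453 CPM in HOM replicates 1 to 4, and at 494, 526, 526 and 468 CPM in WT replicates 1 to 4. No library overlapped between the genotypes, but the log2 fold change of -0.24 (SE 0.07) missed the threshold (edgeR adjusted p = 0.0564). Cadm4 averaged 239 ± 22.01 CPM in HOM and 272 ± 32.2 CPM in WT (SD, n = 4 each; log2 fold change -0.18, SE 0.09). Cadm1 and Cadm2, the long genes of the family, had log2 fold changes of 0.14 (SE 0.08) and 0.15 (SE 0.11) and did not pass.

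Cerebellins are secreted proteins that bridge neurexins to their postsynaptic receptors. Cbln4 stood at 13.4, 10.8, 10.1 and 11.4 CPM in HOM replicates 1 to 4, and at 12.5, 16.9, 18.2 and 18.4 CPM in WT replicates 1 to 4. The groups overlapped through HOM replicate 1 and WT replicate 1, and HOM held 69.3% of the WT mean. The log2 fold change was -0.52 (SE 0.13, edgeR adjusted p = 0.0395), whereas an exact permutation test (two-sided) on log2 CPM gave p = 0.0571. Cbln4 (ENSMUSG00000067578) spans chr2:172036233-172043466 of GRCm38, minus strand. Its call was kept without WT replicate 1 and lost without any of the other 7 libraries (edgeR adjusted p between 0.0151 and 0.130 over the 8 omissions). Cbln2 averaged 19.4 ± 1.60 CPM in HOM and 24.5 ± 3.65 CPM in WT (SD, n = 4 each; log2 fold change -0.33, SE 0.11, edgeR adjusted p = 0.0869).

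Cbln3, which is known from granule cells of the cerebellum, had the largest fold change of the members but did not pass the test. It stood at 6.56, 0.387, 0.744 and 0.791 CPM in HOM replicates 1 to 4, and at 0.379, 0.527, 0.537 and 0.666 CPM in WT replicates 1 to 4. HOM replicate 1 was far above the other 7, which overlapped. The log2 fold change was 2.03 (SE 0.77, edgeR adjusted p = 0.138), and without HOM replicate 1 it was 0.31. Mean log2 CPM of the 7 tested cerebellum markers, of which Cbln3 is one, was 3.82 in HOM replicate 1, 2.99 to 3.22 in the other HOM libraries and 2.93 to 3.51 in the WT libraries. Their part in the value was not tested. C1ql2 and C1ql3, secreted relatives that bind an adhesion receptor on the receiving neuron, had log2 fold changes of -0.17 (SE 0.23) and -0.15 (SE 0.09), with neither past the threshold.

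**Figure D2:**
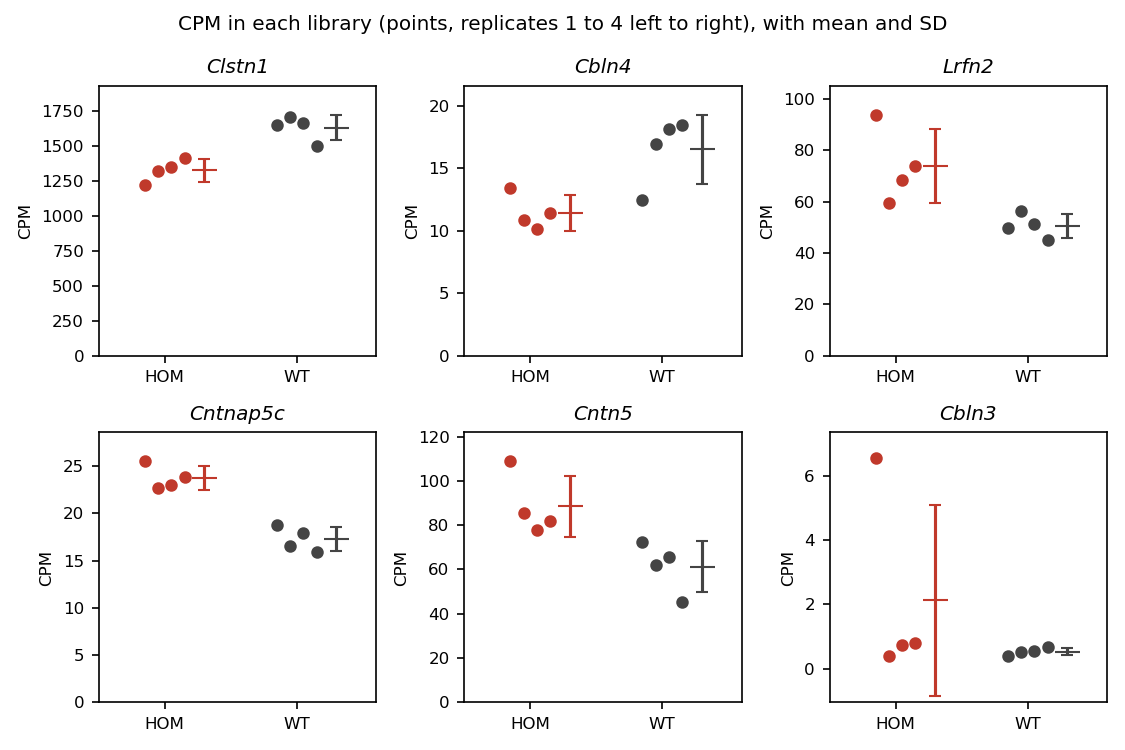
CPM of the 5 members past the threshold and of Cbln3 in each library, HOM left and WT right, with the mean and SD beside the points. The genotypes are separate for Clstn1, Lrfn2, Cntnap5c and Cntn5; Cbln4 overlaps through the replicates 1, and 6.56 CPM in HOM replicate 1 stands alone for Cbln3.

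Teneurins are large transmembrane proteins that latrophilins, which are adhesion receptors coupled to G proteins, bind from the opposite cell. Tenm2 stood at 379.8, 310.3, 303 and 274 CPM in HOM replicates 1 to 4, and at 294, 254, 261 and 180.04 CPM in WT replicates 1 to 4. HOM replicate 4 fell within the WT range, and the log2 fold change was 0.36 (SE 0.14, edgeR adjusted p = 0.140). Tenm4 averaged 195 ± 28.7 CPM in HOM and 158 ± 20.1 CPM in WT (SD, n = 4 each; log2 fold change 0.30, SE 0.11, edgeR adjusted p = 0.130). Tenm1 and Tenm3 had log2 fold changes of 0.01 (SE 0.10) and -0.11 (SE 0.09). Adgrl1, Adgrl2 and Adgrl3, the latrophilins of neurons, lay between -0.05 and 0.07 on the log2 scale and did not pass.

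Adgrl4, also named Eltd1 and known from blood vessel endothelium, averaged 12.9 ± 2.65 CPM in HOM and 17.3 ± 2.47 CPM in WT (SD, n = 4 each). Its log2 fold change was -0.42 (SE 0.14, edgeR adjusted p = 0.103). The 10 endothelial markers all had negative fold changes with a median of -0.34, and 3 of them (Flt1, Cdh5 and Abcb1a) were lower at the threshold. Their summed CPM lay between 166 and 206 in HOM and between 205 and 269 in WT, and the part of this list in the Adgrl4 value was not tested.

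Contactins are immunoglobulin proteins held to the axon membrane by a lipid anchor, and 4 of the 5 measured had positive fold changes. Cntn5 stood at 109, 85.3, 77.8 and 82.0 CPM in HOM replicates 1 to 4, and at 72.3, 62.0, 65.5 and 45.1 CPM in WT replicates 1 to 4. Every HOM library lay above every WT library, and HOM held 144% of the WT mean. This gave a log2 fold change of 0.53 (SE 0.14, edgeR adjusted p = 0.0455). Cntn5 (ENSMUSG00000039488) spans chr9:9660891-10904775 of GRCm38, minus strand. Its call was kept without WT replicate 1 and lost without any of the other 7 libraries (edgeR adjusted p between 0.0416 and 0.138 over the 8 omissions). Cntn1, the partner of Caspr where myelin meets the axon, stood at 375, 412, 403 and 352 CPM in HOM replicates 1 to 4, and at 499.7, 404, 477 and 482 CPM in WT replicates 1 to 4. WT replicate 2 lay among the HOM values, and the log2 fold change of -0.27 (SE 0.08) did not pass (edgeR adjusted p = 0.0639). The 10 oligodendrocyte markers all had negative fold changes too, with a median of -0.29, and their summed CPM lay between 3309 and 4046 in HOM and between 3851 and 5756 in WT; their part in the Cntn1 value was not tested. Cntn3, Cntn4 and Cntn6 had log2 fold changes of 0.10, 0.24 and 0.11 with edgeR adjusted p-values of 0.270 or more.

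The Cntnap4 and Cntnap5 genes encode membrane proteins built like neurexins, and all 4 had positive fold changes. Cntnap5c stood at 25.5, 22.7, 23.1 and 23.8 CPM in HOM replicates 1 to 4, and at 18.7, 16.5, 17.9 and 16.0 CPM in WT replicates 1 to 4. The genotypes were separate, with a gap wider than the range of either, and HOM held 137% of the WT mean. This made a log2 fold change of 0.46 (SE 0.08, edgeR adjusted p = 0.0112). Cntnap5c (ENSMUSG00000038048) spans chr17:57769570-58410355 of GRCm38, plus strand. Its call was kept without each of the 8 libraries in turn, with an edgeR adjusted p between 0.0116 and 0.0417, and among all 20 alternatives it was lost under 1, the choroid plexus covariate (adjusted p = 0.169). Cntnap5b averaged 34.1 ± 2.74 CPM in HOM and 26.9 ± 3.50 CPM in WT (SD, n = 4 each; log2 fold change 0.34, SE 0.10, edgeR adjusted p = 0.0640). Cntnap5a and Cntnap4 had log2 fold changes of 0.18 (SE 0.09) and 0.07 (SE 0.09). The 3 Cntnap5 genes are close relatives, and reads that match several of them may have been shared or dropped in the counting.

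Gene span, the distance from the first to the last annotated base with introns included, set the members apart from other genes and ran with their fold changes. The median span was 165 kb for the members and 26.5 kb for the 14661 protein-coding genes tested, and 22 members (44.9%) spanned 300 kb or more, against 554 of all those genes (3.78%). Of these 22 members, 20 had positive fold changes, with a median of 0.15, and 2 passed, both higher (Cntn5 and Cntnap5c). Among the other 532 genes of this span 64.8% were positive, with a median of 0.09, and of all 554 genes 10.8% passed and 8.84% were higher. At the other end, 12 of the 13 members under 20 kb had negative fold changes, Cbln3 being the exception. Their median was -0.17, beside 0.01 and 52.1% positive for other genes under 20 kb, and 1 passed, Cbln4, where 4.51% of all genes of that span did. Between 20 and 100 kb, 7 of 9 members were negative with a median of -0.12, where 43.4% of other genes of that span were positive, with a median of -0.03, and 1 passed, Clstn1, beside 6.1% of all genes of that span. Between 100 and 300 kb, 2 of 5 members were negative, where 44.1% of other genes were positive, and 1 passed, Lrfn2, beside 7.29%.

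Across the 49 members, log10 span and log2 fold change had a Pearson correlation of 0.28 and a Spearman correlation of 0.66. Without Cbln3 the 48 others gave 0.70 and 0.76. Over all 14661 protein-coding genes the values were -0.01 and -0.05. The points share the same 8 libraries, so these correlations describe these libraries and carry no p.

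**Figure D3:**
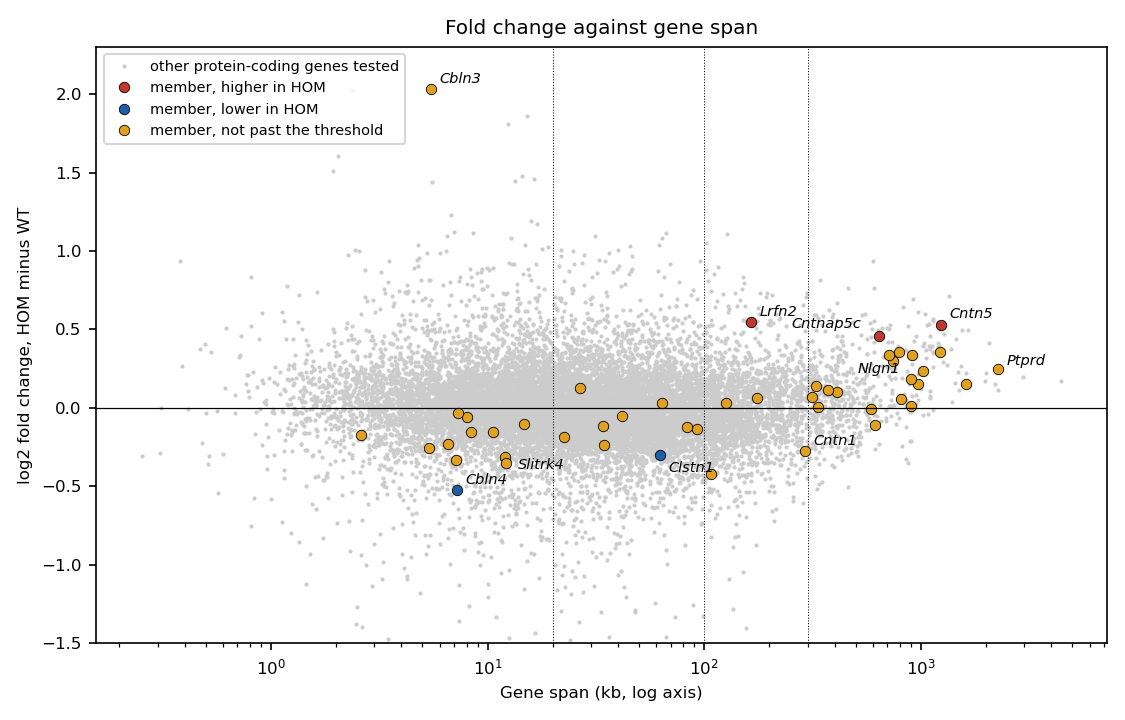
Log2 fold change, HOM minus WT, against gene span on a log axis for 48 members and 14572 other protein-coding genes; 40 other genes beyond the plotted range of -1.5 to 2.3 are left out. Dotted lines mark 20, 100 and 300 kb; members right of the last line lie mostly above 0 and members left of the first mostly below it.

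The span pattern also ran between libraries of one genotype. Among the 22 members of 300 kb and over, HOM replicate 1 was the highest HOM library for 17 and HOM replicate 4 the lowest for 17. WT replicate 1 was the highest WT library for all 22, and WT replicate 4 the lowest for 17 and WT replicate 2 for 5. The median deviation of these members from their mean over all libraries was 0.23, 0.15, 0.03 and -0.06 on the log2 scale in HOM replicates 1 to 4, and 0.15, -0.19, 0.02 and -0.27 in WT replicates 1 to 4. Long members thus moved together by as much within WT as between the genotypes, and the highest WT library lay above HOM replicates 3 and 4. The 13 members under 20 kb had median deviations of -0.12, -0.04, -0.03 and -0.18 in HOM replicates 1 to 4, and of 0.10, -0.04, 0.12 and 0.13 in WT replicates 1 to 4. Their sum was 737 to 768 CPM in HOM and 821 to 852 CPM in WT, and the ranges did not overlap. Nlgn2, whose libraries overlapped, made up much of this sum, averaging 349 CPM in HOM and 374 CPM in WT. Taken singly, 1 of the 13, Slitrk1, had no overlap (7.69%), beside 11.6% of other protein-coding genes under 20 kb.

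**Figure D4:**
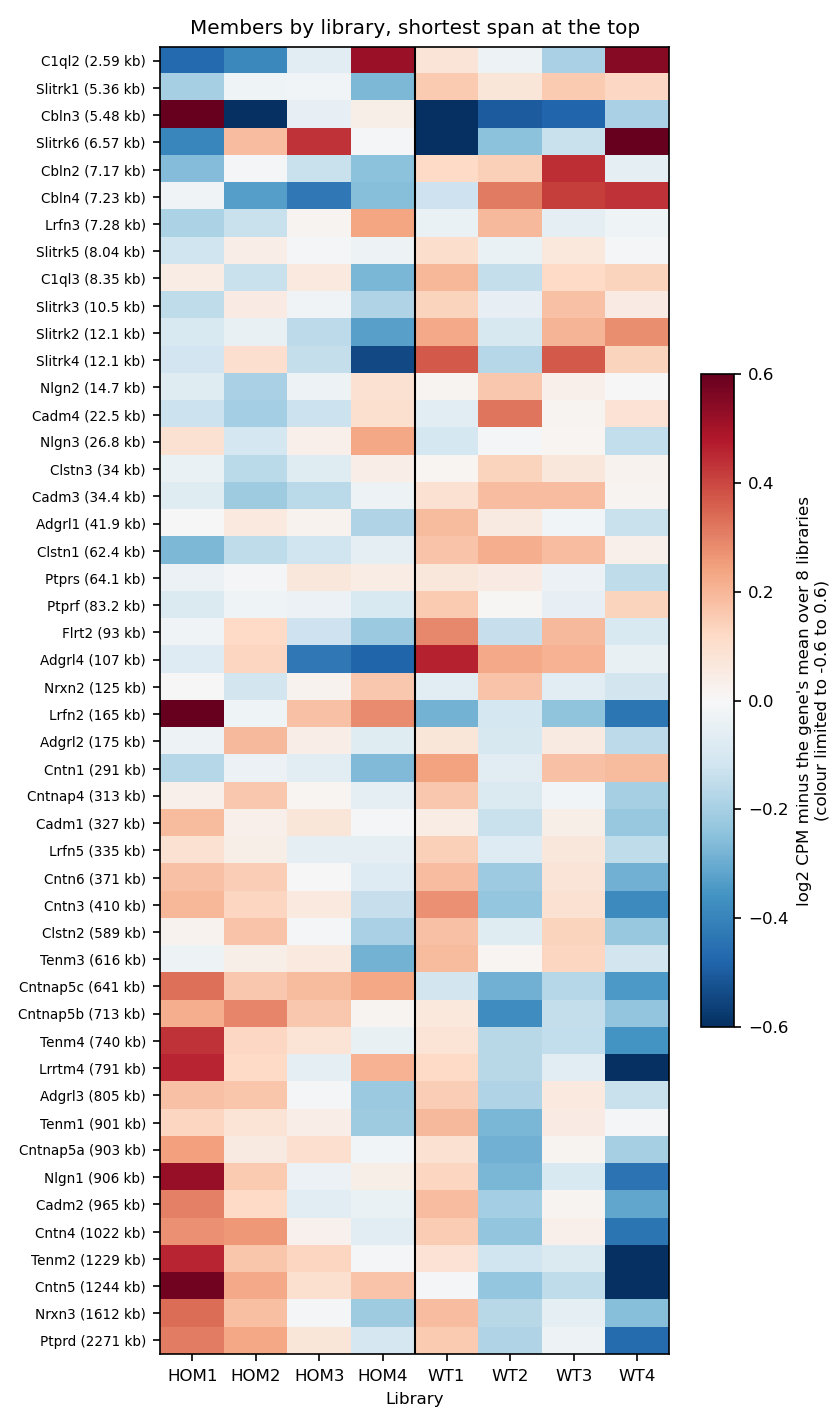
Deviation of log2 CPM from each member's mean over the 8 libraries, for 48 members ordered by span, with HOM libraries left of WT libraries. Toward the bottom, where spans are 300 kb and over, columns mostly shade together, red for HOM replicates 1 and 2 and WT replicate 1 and blue for WT replicates 2 and 4.

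When a smooth trend with span was removed from each library, 7 members passed, beside 1617 of all genes (9.3%). The 5 earlier calls were kept, Lrfn2, Cntnap5c and Cntn5 higher and Clstn1 and Cbln4 lower, and Cntn1 and Tenm3 were called lower in addition. Cntn1 had a log2 fold change of -0.32 (edgeR adjusted p = 0.0135) and Tenm3 of -0.25 (edgeR adjusted p = 0.0398) in that fit. The log2 fold change was then 0.29 for Cntn5, 0.31 for Cntnap5c and 0.55 for Lrfn2. Of the 49 members, 41 kept the sign of their fold change and 18 were positive, with a median of -0.07. The median of the 22 members of 300 kb and over was 0.02, while that of the 13 under 20 kb was -0.23. Across the 49 members, log10 span and these fold changes still had a Spearman correlation of 0.42, with a Pearson correlation of 0.08.

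Other genes of the same machinery were counted from lists chosen for their function. Earlier results of these data were known when the lists were made, so their shares are a description only. Of 59 tested genes among further synaptic organizers, 8 were higher and 2 lower, 16.9% in all beside 5.4% of all genes, and the median log2 fold change was 0.09. Among the higher genes, Mdga1, whose protein binds neuroligins and keeps them from neurexins, averaged 54.3 ± 3.73 CPM in HOM and 34.7 ± 1.33 CPM in WT (SD, n = 4 each; log2 fold change 0.65, SE 0.07, edgeR adjusted p = 0.00087). Igsf21, a partner of Nrxn2 at inhibitory synapses, averaged 127.5 ± 7.54 CPM in HOM and 92.5 ± 10.9 CPM in WT (SD, n = 4 each; log2 fold change 0.46, edgeR adjusted p = 0.0141). Dscaml1, Sdk1, Sdk2, Igsf9 and Kirrel3, immunoglobulin adhesion proteins, had log2 fold changes of 0.50, 0.61, 0.49, 0.77 and 0.60. The list was not matched for span. Dscaml1, Sdk1 and Kirrel3 span 327, 974 and 551 kb, where 8.84% of all protein-coding genes of 300 kb and over were higher. Mdga1, Igsf21, Sdk2 and Igsf9 are shorter, at 142, 220, 291 and 17.1 kb. Thbs2, a secreted protein of astrocytes that promotes synapse formation, and Cntnap1, which encodes Caspr, had log2 fold changes of -0.61 and -0.33 and were lower. Of the presynaptic and postsynaptic scaffold lists, 0 of 27 and 1 of 26 genes passed, Homer1 of the second list being lower at -0.65, with medians of -0.00 and -0.05.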

How the data were processed

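The deposited values are raw counts of reads per Ensembl gene, without scaling, for 8 libraries of total RNA. Per the labels, RNA from a Qiagen kit went into TruSeq libraries that were stranded and read from both ends. FastQC 0.11.3, STAR, featureCounts, edgeR and the build GRCm38 are named in the submitters' processing notes, without the counted feature or the strand setting. Names and positions came from GENCODE M21, which held 54409 of the 54446 IDs; the others carried 0.0143% of counts.

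The test was edgeR's quasi-likelihood F test (edgeR 4.0.16, R 4.3.3, TMM scaling, filterByExpr), with Benjamini-Hochberg adjustment over all 17395 genes and a threshold of 0.05. The biological coefficient of variation was 0.117. Single values were compared by an exact permutation test over 70 relabellings of log2 CPM (prior count 2), whose smallest p is 0.0286. Standard errors were the log2 fold change over the root of F. Span trends were fitted per library with mgcv 1.9.3. The alternatives are named with their effects below; DESeq2 1.42.0 and limma 3.58.1 were used for 2 of them. Every pair of replicates differed by more than sampling noise (chi-square of at least 6.68 per degree of freedom), so each library counted as 1 sample. Intervals of single counts were not computed; standard errors cover the spread between libraries.

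On counts simulated for the 17395 genes of this comparison, 43 of 100 genes changed by 0.5 on the log2 scale were recovered, 79 of 100 changed by 1, and 11 unchanged genes were called. Each simulated gene varied independently, without the shifts shared by many genes of a library that the data hold. These rates therefore need not apply to the data.

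The members and the gene lists were chosen with earlier results of these data known. Named are Scn2a, neurexins and neuroligins, members past the threshold, the 2 of smallest p in each family, the 5 longest and 5 shortest. Symbols failing the count minimum are named too, and organizers past the threshold, up to 8 by p. Any other organizer past it, such as Kirrel3, and further members were named to give a value, after their values were seen. Genes that the rule selects but that are not reported here by name are kept in the counts. Promoter windows came from RefSeq.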

Additional observations from a re-analysis of the deposited data

Results flagged for a closer look

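In 3 of 98 groups of 4 libraries screened, 1 per member and genotype, a single library stood far from the other libraries of its genotype by Dixon's test; chance flags about 1 group in 20. Cbln3 stood at 6.56 CPM in HOM replicate 1, against 0.387 to 0.791 CPM in the other HOM libraries. Nrxn2 stood at 659 CPM in WT replicate 2, against 543 to 559 CPM in the other WT libraries. Lrfn3 stood at 35.3 CPM in WT replicate 2, against 29.6 to 30.3 CPM in the other WT libraries.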

How the results depend on the processing

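Across 20 alternatives and 31 named members, 550 values kept their sign and side of the threshold, 37 lost a call, 15 gained one and 17 changed sign. The 5 members past the threshold became 11 with DESeq2 (7 lower; 1900 of all genes, against 940), 0 with the choroid plexus covariate (0 higher, 0 lower; 37 of all genes) and 2 without HOM replicate 4 and WT replicate 4 together (1 higher, 1 lower; 335 of all genes). With the span trend removed 4 were lower and 1617 of all genes passed, limma-voom gave 1 lower and library totals alone 0 lower. Leaving out 1 library gave 1 to 5 members (1 to 3 higher, 0 to 3 lower) and 180 to 1187 of all genes. Calls were fewest without HOM replicate 3 (180), WT replicate 3 (181) or HOM replicate 1 (212). The members' median stayed between -0.07 and 0.08. RLE and upper-quartile scaling, a filter of 1 CPM and the robust option kept all 5 calls. The median of all genes moved by at most 0.07, with library totals alone. The cause of these shifts was not tested.

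Whether the replicate numbers pair the samples is not stated in the labels. Over all genes tested, within-genotype deviations of same-numbered libraries correlated at 0.05, -0.20, -0.01 and 0.03. These values summarise all genes at once, so they do not settle pairing. Among the 22 members of 300 kb and over, replicate 1 was most often the highest library and replicate 4 most often the lowest, in both genotypes. With the replicate number as a block, 2 members passed (2 higher, 0 lower; 364 of all genes), Cntnap5c and Cntn5.

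Of the values that changed sign, none passed the threshold. With the choroid plexus covariate the log2 fold changes were -0.0316 for Nrxn2, -0.0631 for Adgrl2, 0.0537 for C1ql2 and 0.88 for Slitrk6. With the span trend removed they were -0.13 for Nrxn3 and -0.0672 for Ptprd. Without both replicates 4 they were -0.0406 for Nrxn2 and 0.65 for Slitrk6. Slitrk6 was 0.16 with limma-voom and 0.0363 with the block. Lrfn3 was 0.0364 on library totals alone and 0.0026 after upper-quartile scaling. Over the omissions of 1 library, values ran from -0.55 to 0.62 for Slitrk6 (above 0 without WT replicate 4), from -0.11 to 0.0342 for Lrfn3 (above 0 without HOM replicate 1 or 2 or WT replicate 2) and from -0.41 to 0.00053 for C1ql2 (above 0 without WT replicate 4).

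Depth limits Cbln3 and Slitrk6, with 11 to 237 and 15 to 101 counts per library; for the other members the spread among 4 libraries per genotype limits the precision.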
